A study of Mus musculus with 2 samples.

Results

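The 7 genes Dppa2, Dppa4, Zfp42, Triml1, Triml2, Klf4 and Tcl1 are genes of pluripotent cells, with neighbours of Zfp42, that had early but moderate replication timing scores in mouse embryonic stem cells. They were chosen by their values of this same score at the gene midpoints, in earlier results of these data, so the scores describe the choice and carry no test. They are 7 of 21225 protein-coding genes with a score, and they lie at 4 places: Dppa2 with Dppa4, Zfp42 with Triml1 and Triml2, Klf4, and Tcl1. The cells were 46C, an established embryonic stem cell line of strain 129P2/Ola that is known to carry a green fluorescent protein reporter at Sox1, grown on gelatin with serum, serum replacement and leukemia inhibitory factor (LIF). They took up the thymidine analogue bromodeoxyuridine (BrdU) at 50 µM for 2 h and were sorted by DNA content. The DNA of 10000 cells was used, and 1 early S phase and 1 late S phase library were made from BrdU-precipitated, whole-genome amplified DNA. Both libraries enter 1 deposited score per position, smoothed over 300 kb, so there is no error between experiments, and the read depth is unknown. A positive score is read as early, from the order named in the title of the deposited table. The sources used here state neither its log base nor its zero point, so differences of score are not folds. The score holds no RNA level, so the identity of the cells was not checked against marker genes.

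Replication timing is the order in which parts of the genome are copied during S phase. It is set over long domains, and regions with many active genes are mostly copied early. Pluripotent cells keep themselves undifferentiated through a network of transcription factors around Oct4, Sox2 and Nanog, with LIF signalling through Stat3 in the mouse. Dppa2 and Dppa4 encode a pair of DNA-binding proteins with SAP domains that act together in the early embryo and in stem cells. Zfp42 encodes the zinc finger protein Rex1, a marker of the naive state that arose from the Yy1 family. Klf4 encodes a Krüppel-like transcription factor used in reprogramming, and Tcl1 a coactivator of the kinase Akt. Triml1 and Triml2 encode proteins related to the tripartite motif family.

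All 7 genes had scores above 0, where 73.5% of all protein-coding genes did, and all 7 lay below the protein-coding median of 1.02. Dppa2 was the highest at 0.88 (chromosome 16, 48310274 to 48319513), which placed it at percentile 45.5 of protein-coding genes. Triml1 followed at 0.87 (chromosome 8, 43129806 to 43180494) and Triml2 at 0.86 (chromosome 8, 43180463 to 43193884). Dppa4 had 0.79 (chromosome 16, 48283735 to 48294292). These 4 genes stood within 0.1 of each other on 2 chromosomes, and no replicate shows whether that order is larger than experimental error. Klf4 had 0.66 (chromosome 4, 55527137 to 55532475) and Zfp42 0.65 (chromosome 8, 43295067 to 43307009). Tcl1 was the lowest at 0.46 (chromosome 12, 105216753 to 105222737), at percentile 35.0. Against the autosomal median score of -0.30 in place of 0 all 7 were early too, as were 78.5% of protein-coding genes. The median of the 7 was 0.79, and 10.5% of protein-coding genes had a score inside their range. The coordinates are those of mm10. Each score was read at the position nearest to the gene midpoint, between 0.107 kb away for Klf4 and 5.21 kb for Triml1. Between 45 and 52 positions lay within 150 kb of each gene, with no spacing wider than 17.4 kb.

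The other pluripotency genes were mostly earlier, which the choice of the 7 by this same score favours. Of 46 genes on the wider list, 42 lay above 0, where 73.5% of all protein-coding genes did. The median of the 46 was 1.40 (quartiles 1.14 and 1.55). Of them, 39 scored higher than Dppa2, the highest of the 7, which stood at percentile 45.5 of protein-coding genes. The list had 30 transcription and chromatin factors, of which 27 lay above 0 with a median of 1.37, and 16 signalling and surface genes, of which 15 lay above 0 with a median of 1.46. The highest factors were Sall4 (1.65), Nanog (1.64) and Myc (1.61). The highest of the second group were the adhesion gene Pecam1 (1.74), the growth factor gene Nodal (1.69) and its co-receptor gene Tdgf1 (1.69). The lowest factors were Zscan4c (-0.59), a gene of the cell state that resembles the embryo at its first cleavages, the nuclear receptor gene Nr0b1 (-0.45) and Lin28b (-0.18), which encodes an RNA-binding protein. The stem cell factor receptor gene Kit (-0.19) was the only member of the second group below 0. With 0 moved to the autosomal median Kit and Lin28b had 0.12 each, and 44 of the 46 genes lay above it. In the second group the LIF receptor gene Lifr (0.51) and the fucosyltransferase gene Fut4 (0.80) came next. Of the 46 genes, 3 had scores inside the range of the 7: Tet2 (0.48), an enzyme that oxidises methylated cytosine, Lifr and Fut4. Among all protein-coding genes 10.5% lay in that range. A moderate early score was therefore limited neither to the 7 genes nor to pluripotency genes.

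**Figure D1:**
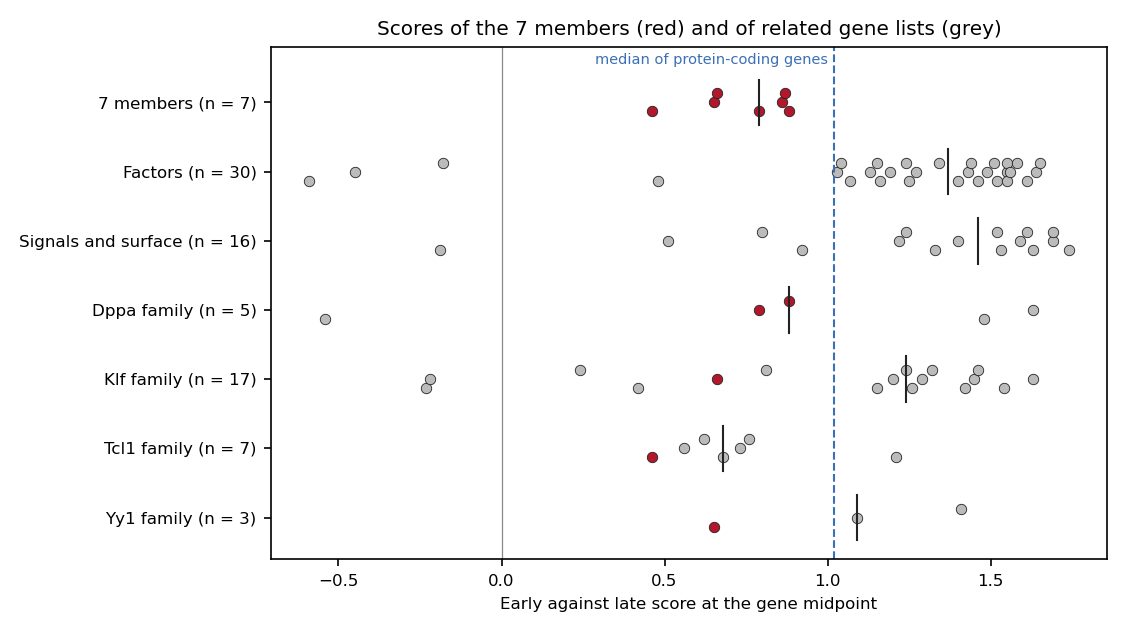
Score at the gene midpoint (horizontal axis, no unit) for the 7 genes and for 6 related lists. Each point is a gene, red for the 7 genes and grey for the others, the vertical bars are list medians and points are spread vertically for legibility only; the 7 genes sit between 0.46 and 0.88, to the left of the dashed protein-coding median of 1.02, whereas most factors and signalling genes sit to its right.

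Dppa2 and Dppa4 lay on a small early island inside late-replicating DNA. The island, an unbroken run of positions above 0, reached from 48127789 to 48851965 on chromosome 16 and was 0.724 Mb long. The score was -0.87 at 0.3 Mb below the midpoint of both genes, -0.17 at 0.2 Mb below, 0.55 at 0.1 Mb below and 0.82 at the midpoint. It reached its peak of 1.00 at 73.0 kb above the midpoint, 55.2 kb from Dppa2, and then fell through 0.76 at 0.2 Mb and 0.38 at 0.4 Mb to -0.17 at 0.6 Mb. The sides were unequal: the genes began 156 kb from the lower end of the island and ended 532 kb from the higher end. Across the lower edge the score changed by 1.77 over 300 kb, and across the higher edge by 1.05. Over 1077 boundaries between runs of at least 300 kb, the median change was 1.52 (quartiles 1.20 and 1.86), so the lower edge lay between the quartiles and the higher edge below the lower one.

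The neighbours of Dppa2 and Dppa4 followed this slope. The island held 6 protein-coding genes. Morc1, a germ cell gene for silencing transposable elements and the next gene above Dppa2, had 0.76. Trat1, a T cell receptor adaptor gene, had 0.29, and the resistin-like genes Retnlb and Retnla had 0.18 and 0.08. Retnlg, the next of the resistin-like genes, had -0.06 and lay outside the island at the deposited zero point. With 0 moved to the autosomal median it had 0.25. The values of these genes came from 1 slope that the smoothing makes continuous, and they are not separate measurements. On the other side the next gene, the predicted gene Gm52257, was 222 kb from Dppa4 and had -0.53. On the lower side the late run was 3.50 Mb long, with a lowest score of -1.68. On the higher side it was 1.45 Mb long and also reached -1.68. Of 15 protein-coding genes within 2 Mb, 6 lay above 0 (40.0%), where 73.5% of all protein-coding genes did. These were the 6 of the island. Dppa2 had the highest score of the 15, and the predicted gene Gm4802 the lowest at -1.57. Of the positions within 2 Mb 18.7% were above 0, the lowest share of the 4 loci at this flank. The median over all autosomal positions was -0.30, so most of them lay below 0, unlike most protein-coding genes. Within 1 Mb the share was 38.7%, against 29.0% for the Zfp42 locus.

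**Figure D2:**
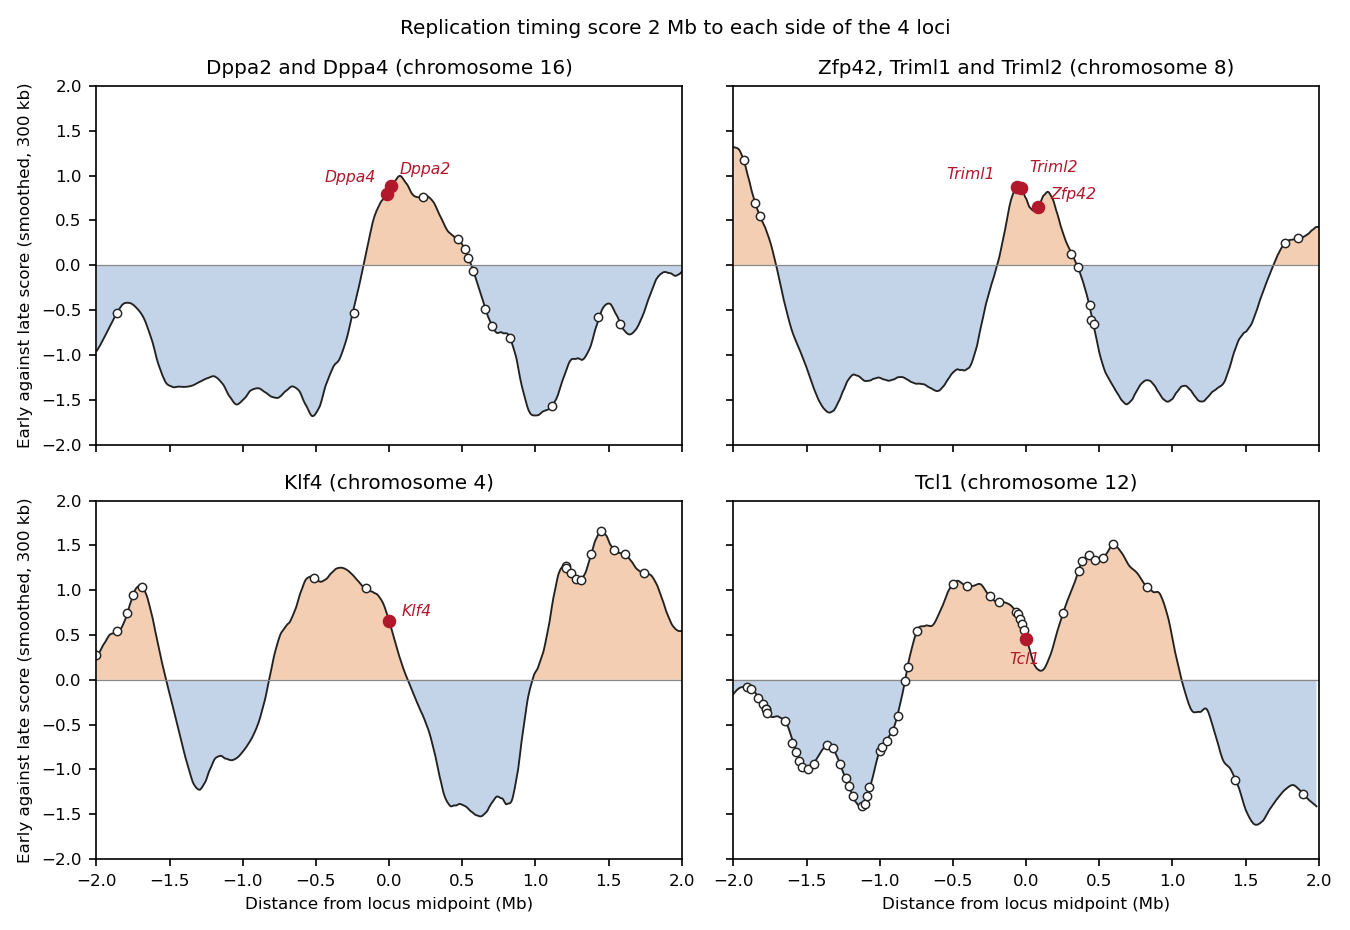
Early against late score (vertical axis, smoothed over 300 kb, no unit) against the distance from the midpoint of each locus in Mb, with orange for scores above 0 and blue for scores below 0. Red points are the 7 genes and open points the other protein-coding genes; Dppa2 and Dppa4, and Zfp42 with Triml1 and Triml2, sit on islands of 0.724 and 0.540 Mb, Klf4 on the falling side of a 0.943 Mb run, and Tcl1 beside a low point inside a run of 1.88 Mb.

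Zfp42, Triml1 and Triml2 lay on a second island, shorter than the first. It reached from 43023470 to 43563945 on chromosome 8, was 0.540 Mb long and peaked at 0.89 inside Triml1. Between that peak and Zfp42 the score fell to 0.61, at 24.1 kb below the midpoint of Zfp42, and rose again to 0.82 at 67.5 kb above it. Zfp42 lay beside a shallow low between 2 maxima, and its score of 0.65 was the lowest of the 3 genes at the midpoint. With the median of the positions within 150 kb in place of the single position the order turned, with 0.72 for Zfp42, 0.67 for Triml2 and 0.65 for Triml1. Maxima so close together are within the 300 kb smoothing width. Adam26b, a gene of the ADAM metalloprotease family at the edge of the island, had 0.13, and its neighbour Adam26a just outside had -0.02, or 0.29 with 0 moved to the autosomal median.

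The DNA around the Zfp42 island was late on both sides and held few genes. On the lower side a late run of 1.50 Mb had a median of -1.27 and held no protein-coding gene with a score, and the next gene there, Frg1, lay 1710 kb from the 3 genes and had 0.55. On the higher side a late run of 1.33 Mb had a median of -1.33 and held 4 genes: Adam26a, Adam34, Adam34l and the predicted gene Gm5347. These had -0.02, -0.44, -0.61 and -0.66. The change over 300 kb was 1.86 at the lower edge and 1.65 at the higher edge. Over boundaries the median was 1.52, with quartiles 1.20 and 1.86. The lower edge thus lay about at the upper quartile, and the higher edge between the quartiles. Of 13 protein-coding genes within 2 Mb, 9 lay above 0 (69.2%), near the 73.5% of all protein-coding genes. Of these 9, 5 belonged to other early runs beyond the late stretches. The centrosome gene Pcm1, 1930 kb below the midpoint, was the highest at 1.18. Of positions within 2 Mb 30.2% were above 0.

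Islands of this size were common, and most reached higher. Of 715 early runs of at least 300 kb, 40.7% were no longer than the run of Dppa2 and Dppa4. Among the 157 runs from 0.5 to 0.75 Mb long, the median peak was 1.20 (quartiles 0.94 and 1.43), and 108 reached 1. The Dppa2 peak of 1.00 stood between the lower quartile and the median, and the Zfp42 peak of 0.89 below the lower quartile. Of the protein-coding genes above 0, 13.2% lay in runs no longer than 0.724 Mb. Among the other pluripotency genes above 0 this held for 8 of 42. Among them were Tet2 (0.48), Lifr (0.51), Fbxo15 (0.92), Sox2 (1.04), Klf5 (1.15), Trim28 (1.40) and Myc (1.61), and their scores covered most of the range of the list. A short run thus went with low and with high scores. How far the smoothing lowers the peak of an island was not tested.

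**Figure D3:**
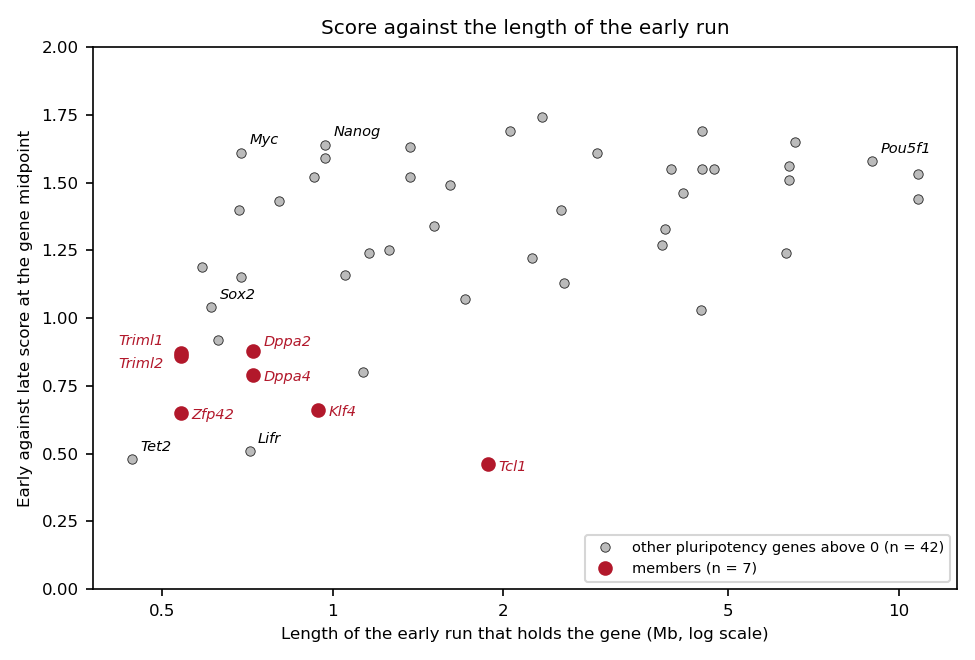
Score at the gene midpoint (vertical axis, no unit) against the length of the early run that holds the gene (horizontal axis, Mb, log scale), for the 7 genes (red) and the 42 other pluripotency genes above 0 (grey). In runs of up to 0.724 Mb grey points reach from 0.48 for Tet2 to 1.61 for Myc, and Tcl1, in a run of 1.88 Mb, is the lowest point at 0.46.

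Klf4 lay on the shoulder of an early run and not at its centre. The run reached from 54713159 to 55656453 on chromosome 4 (0.943 Mb) and peaked at 1.25, 328 kb below Klf4. The DNA repair gene Rad23b, next to Klf4 on that side, had 1.02, and the zinc finger gene Zfp462 had 1.14. The score was 0.97 at 0.1 Mb below Klf4, 0.66 at the gene, 0.12 at 0.1 Mb above it and -0.29 at 0.2 Mb above it. The higher end of the run was 124 kb beyond the gene. The position read for Klf4 was 127 kb from the end of its run, and 13.9% of the protein-coding genes above 0 were as close to an end or closer. None of the 42 other pluripotency genes above 0 was (0 of 42), and the closest of them was Lifr at 138 kb. Triml1, on its shorter island, was at 126 kb.

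No protein-coding gene with a score lay in the late stretches on either side of the Klf4 run. The late run above it was 0.847 Mb long, with a median of -1.32 and a lowest score of -1.52. The late run below it was 0.702 Mb long, with a median of -0.85. The next protein-coding gene above Klf4 was the testis actin-like gene Actl7b, 1210 kb away, at 1.27. Within 2 Mb, 18 of 18 protein-coding genes lay above 0, where 73.5% of all protein-coding genes did. They ranged from the choline transporter gene Slc44a1 at 0.28 to Frrs1l, a gene of glutamate receptor assembly, at 1.66. Of positions 62.5% were above 0, whereas most autosomal positions lay below 0. The genes around Klf4 thus gave no sign of the late stretches that the positions between them showed.

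Tcl1 lay inside a long early run, on the slope into a low point. The run reached from 104398763 to 106279022 on chromosome 12 (1.88 Mb) and held 20 protein-coding genes. It had a maximum of 1.11 at 470 kb below Tcl1 and one of 1.51 at 599 kb above it. Between them the score fell to 0.10, at 99.0 kb above the midpoint of Tcl1. The stretch under 0.5 around it was 207 kb long, shorter than the smoothing width. The 50 positions within 150 kb of the low point had no spacing wider than 17.3 kb, so the table had no gap there. Tcl1 was 822 kb from the nearer end of its run, further than the other 6 genes, whose largest distance was 265 kb for Zfp42.

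The Tcl1 gene family ran down this slope. Tcl1b2, Tcl1b1, Tcl1b5, Tcl1b3 and Tcl1b4, relatives of Tcl1 in 1 cluster, had 0.76, 0.73, 0.68, 0.62 and 0.56 in the order of the chromosome, and Tcl1 closed the series with 0.46. The cluster is far shorter than the smoothing width, so this order shows the slope and not 6 measurements. The mesoderm transcription factor gene Gsc (0.54) and the serine protease inhibitor gene Serpina3n (0.14) were at the lower end of the run. The microRNA processing gene Dicer1 (1.07) stood near its lower maximum. The next gene above Tcl1, D430019H16Rik, was 231 kb away and had 0.75. Further beyond the low point were the bradykinin receptor gene Bdkrb2 (1.21), the autophagy gene Atg2b (1.39), Bdkrb1 (1.33) and the poly(A) polymerase gene Papola, the highest within 2 Mb at 1.51. The 3 highest genes of the run were Papola, Atg2b and Ak7 (1.36), and the 3 lowest Serpina3n, Tcl1 and Gsc. Of 52 protein-coding genes within 2 Mb, 20 lay above 0 (38.5%), where 73.5% of all protein-coding genes did. All 20 were in this run, and within 1 Mb it was 20 of 25. The late run below held 32, most of them genes of the Serpina cluster with Serpina5 lowest at -1.41. The late run above held 3, among them Bcl11b, a transcription factor gene of T cells.

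The 7 genes thus came from 3 kinds of place: islands, a shoulder and a low point inside a run. The profiles of 2 Mb to each side were compared at 201 offsets by the root mean square difference, as a description of 1 pair of libraries with neighbouring offsets dependent. Dppa2-Dppa4 and the Zfp42 locus were the most alike pair, at 0.59, and the other 5 pairs lay between 1.25 and 1.57. These values compare both profiles in the direction of the chromosome. With 1 profile turned round the same pair stayed the most alike, at 0.73. Klf4 then differed by 1.27 from Dppa2-Dppa4, 1.30 from the Zfp42 locus and 1.53 from Tcl1, against 1.54, 1.37 and 1.57. The loci were also compared with 17028 protein-coding genes with complete profiles. Symbols starting Gm with a digit or ending Rik were left out, and 1 gene was taken per 4 Mb. On other chromosomes, those then most like the Dppa2-Dppa4 profile were Nop10 on chromosome 2 (0.35) and Snx2 on chromosome 18 (0.36). For the Zfp42 locus they were Qk on chromosome 17 (0.37) and Cyrib on chromosome 15 (0.39). For Tcl1 they were Ccdc3 on chromosome 2 (0.44) and Cracr2a on chromosome 6 (0.45). Klf4 had the least close matches in the direction of the chromosome, Klhl42 on chromosome 6 (0.51) and Rnf144b on chromosome 13 (0.56). The median difference over all the genes compared was between 1.42 and 1.63 for the 4 loci.

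Relatives and namesakes of the 7 genes elsewhere in the genome had scores on both sides of theirs, and Klf8 lay among them. Of the other Dppa genes, which share with Dppa2 and Dppa4 a name taken from expression in early development, Dppa3 had 1.63, Dppa5a 1.48 and Dppa1 -0.54. Of 17 Krüppel-like factor genes 15 lay above 0, where 73.5% of all protein-coding genes did, and their median was 1.24. Klf4 ranked above 4 of them, Klf12 (-0.23), Klf7 (-0.22), Klf6 (0.24) and Klf14 (0.42); Klf12 and Klf7 turned to 0.07 and 0.08 with 0 moved to the autosomal median. The highest were Klf16 (1.63), Klf11 (1.54) and Klf2 (1.46), and Klf2 and Klf5 (1.15), which act beside Klf4 in stem cells, were both earlier than Klf4. The remaining members were Klf8 (0.81), Klf15 (1.20), Klf9 (1.24), Klf3 (1.26), Klf17 (1.29), Klf10 (1.32), Klf1 (1.42) and Klf13 (1.45). Yy1 had 1.41 and Yy2, on chromosome X, 1.09, against 0.65 for Zfp42. Mtcp1, the relative of Tcl1 on chromosome X, had 1.21.

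The start regions of the genes differed in their base composition, which the score did not enter. Of the 7 genes 5 had an entry in a table of RefSeq sequences of GRCm38.p6, whose chromosomes are those of mm10; Dppa2 and Dppa4 had none. The 250 bases before the start were taken. Over 20752 such windows of 17030 protein-coding genes, the median number of CG dinucleotides was 10 (quartiles 3 and 19) and the median G and C content 56.0%. Klf4 and Triml1 mark the ends of the range and are shown 5′ to 3′ with each CG in capitals, Klf4 from chr4:55532476-55532725, minus strand, and Triml1 from chr8:43141487-43141736, minus strand.
Klf4: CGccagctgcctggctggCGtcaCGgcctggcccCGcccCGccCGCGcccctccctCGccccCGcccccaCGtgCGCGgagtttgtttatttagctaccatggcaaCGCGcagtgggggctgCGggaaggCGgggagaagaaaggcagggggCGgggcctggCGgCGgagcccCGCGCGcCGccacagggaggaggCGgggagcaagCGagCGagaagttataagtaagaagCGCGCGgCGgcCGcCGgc
Triml1: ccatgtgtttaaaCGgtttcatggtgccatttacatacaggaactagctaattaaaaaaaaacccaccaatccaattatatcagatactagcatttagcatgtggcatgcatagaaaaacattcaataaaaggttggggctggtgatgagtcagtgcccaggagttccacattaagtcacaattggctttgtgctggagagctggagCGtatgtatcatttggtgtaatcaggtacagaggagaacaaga
The Klf4 window had 32 CG dinucleotides and 74.0% G and C. The Triml1 window had 2 and 40.4%. The score at the gene midpoint was 0.87 for Triml1 and 0.66 for Klf4, but the median within 150 kb was 0.65 for both. The run of Klf4 peaked at 1.25 and the island of Triml1 at 0.89. A link between base composition and score was not tested. Zfp42 had 9, Triml2 8 and Tcl1 7, all below the median of 10. The listed start of Triml1 lies inside the span that the gene table gives for it, and the score there was 0.84.

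Sequence words bound by pluripotency factors were searched on both strands of the same windows: ATTTGCAT, the octamer known to be bound by Oct4 (1.60% of windows), TCAAGGTCA for Esrrb (0.275%), GGGTGTGG for Krüppel-like factors (3.33%) and CATTGT for Sox factors (8.70%). Of the 5 windows only that of Zfp42 had a match, with the octamer and, on the other strand, the Krüppel-like word, which reads CCACACCC. It is shown for that reason, from chr8:43307010-43307259, minus strand, 5′ to 3′, with both matches, which do not overlap, in capitals.
Zfp42: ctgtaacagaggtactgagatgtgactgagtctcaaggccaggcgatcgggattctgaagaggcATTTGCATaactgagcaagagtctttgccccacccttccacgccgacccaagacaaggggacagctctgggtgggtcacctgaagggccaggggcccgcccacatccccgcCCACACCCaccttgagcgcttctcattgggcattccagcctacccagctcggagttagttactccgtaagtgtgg
The Tcl1 window is shown beside it because Tcl1 had the lowest score of the 7 and no match; it is from chr12:105222738-105222987, minus strand, with each CG in capitals.
Tcl1: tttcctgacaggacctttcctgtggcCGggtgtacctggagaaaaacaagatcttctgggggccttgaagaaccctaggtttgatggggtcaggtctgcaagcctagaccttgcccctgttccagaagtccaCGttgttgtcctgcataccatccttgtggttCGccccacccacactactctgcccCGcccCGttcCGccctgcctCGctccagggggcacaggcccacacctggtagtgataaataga
A match is a description of the letters, and a window without one says nothing about the factor.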

How the data were processed

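The reads were aligned with Bowtie2 to mm10, per the submitters' processing notes. Each deposited value is a score in which the authors set early against late signal, smoothed over 300 kb, per the name of the table. For counting, scaling, log base and zero point the method is not given in the sources used here, and the depth is unknown. Smoothing joins neighbouring genes and flattens short domains, and amplification can add uneven coverage that 1 library per fraction cannot show.

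Of 384798 positions (median spacing 5778 bp) 4 had no value and were left out; 0 columns went unused. Genes came from a RefSeq table of GRCm38.p6, without 348 entries of scaffolds and alternate sequences; 21225 of 21774 protein-coding genes had a position within 100 kb of the midpoint. A run is a stretch of positions of 1 sign without a gap over 300 kb. The change at an edge is the score 150 kb inside it minus that 150 kb outside. The members and lists were chosen with earlier results of these data known. Named genes were the 7 members, the genes next to them and those in their runs. In runs with over 12 these were the 3 highest and 3 lowest. The extremes within 2 Mb and of each list and the gene families were named too. For each locus the 2 genes of other chromosomes with the smallest root mean square difference were added, after the filters given with those values. Others were chosen after their values were seen: Retnlg, Adam26a, Adam34, Adam34l, Bcl11b, Bdkrb1, Bdkrb2, Dicer1, the genes named in short runs and Tunar. At least 1 gene that the rule would name is not reported here, though it counts in its list. With 1 library per fraction no test was run. The lookup and run functions were tested on simulated data, and the promoter table's orientation was checked by the place of TATAAA on both strands. Python 3.11.15, numpy 2.4.6, pandas 2.3.3 and matplotlib 3.10.9 were used. Alternatives changed the zero point, the place read in a gene, the run ends and the flank.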

Additional observations from a re-analysis of the deposited data

How the results depend on the processing

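No alternative reversed the score of any of the 7 genes, and all 7 genes stayed above 0 under the 4 alternatives applied to that count. No paired analysis was possible because there is 1 library per fraction. With 0 moved to the autosomal median of -0.30, the scores became 1.18 for Dppa2, 1.09 for Dppa4, 0.96 for Zfp42, 1.18 for Triml1, 1.17 for Triml2 and 0.77 for Tcl1, a shift larger than the SD of the scores within 150 kb of each of these genes; Klf4 became 0.97, within that SD. The median of the 7 became 1.09, and 78.5% of protein-coding genes lay above that zero point. The islands were then 0.828 and 0.655 Mb long, and the genes above 0 rose from 42 to 44 of 46 on the wider list, and within 2 Mb from 6 to 7 (Dppa2-Dppa4), 9 to 10 (Zfp42) and 20 to 25 (Tcl1). Kit, Lin28b, Klf12, Klf7, Retnlg and Adam26a were among those that turned. Ended below 50% of the peak, the runs were 0.460 Mb long for Dppa2 and Dppa4, 0.362 Mb for Zfp42 and 0.696 Mb for Klf4. No such run could be had for Tcl1, whose score is below that level. The share of positions above 0 depends on the flank. Within 1 and 0.5 Mb it was 38.7% and 73.6% for Dppa2-Dppa4 and 91.7% and 100% for Tcl1, and for Zfp42 29.0% and 59.2%, so that Zfp42 and not Dppa2-Dppa4 had the lowest share at both narrower flanks. Within 1 Mb 6 of 11 genes around Dppa2-Dppa4, 4 of 8 around Zfp42, 3 of 3 around Klf4 and 20 of 25 around Tcl1 lay above 0. The share over all protein-coding genes was 73.5%. Gene ends and medians over 150 kb moved no score of the 7 by more than that SD, though the medians turned the order of Zfp42, Triml1 and Triml2. Start sites (added after the data were seen) were listed for 5 of the 7, without Dppa2 and Dppa4. They moved none of those scores by more than that SD. Without replicates or read depth, no difference between 2 scores can be set against experimental error.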

Other observations

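The early runs also held genes that encode no protein. The run of Dppa2 and Dppa4 held 3 long non-coding RNA genes and 2 pseudogenes, that of Zfp42 held 2 pseudogenes and no long non-coding RNA gene, and that of Klf4 held 11 long non-coding RNA genes and 6 pseudogenes beside 3 protein-coding genes. The run of Tcl1 held 21 long non-coding RNA genes. One of these, Tunar, is known as a long non-coding RNA of stem cells and neural cells. It lies at 105336594 to 105383932 on chromosome 12, 141 kb above Tcl1 and beside the low point of 0.10, and had a score of 0.17, lower than that of Tcl1. With 0 moved to the autosomal median the low point was 0.41.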
